A study of Mus musculus with 6 samples.

Results

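The acetylated landscape of the sorted embryonic lung mesothelium consists of 10249 genomic regions in which both mesothelium libraries of the series carried an H3K27ac peak. The regions were built by merging the peaks of the 2 libraries wherever they overlapped by at least 1 bp on chromosomes 1 to 19 and X, and by keeping each merged region that held a peak of both, whatever the epithelium libraries showed there. They are 10249 of the 132171 regions found when the peaks of all 4 H3K27ac libraries are merged. Acetylation of lysine 27 on histone H3 (H3K27ac) was mapped by CUT&RUN, a method that tethers a nuclease to the marked nucleosomes through an antibody, so that the DNA around them is cut free and sequenced.

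All cells came from pooled mouse lungs at stage E16.5, from timed Myrf Fl/Fl matings with no Cre named, and are called wildtype in the design text of the series. Mesothelial cells were sorted as live (DAPI-) PDPN+ EPCAM- CD45- CD31- cells, which leaves out epithelium by EPCAM, leukocytes by CD45 and endothelium by CD31 (Pecam1). Mesothelium replicate 1 was made from 25k cells, fewer than the range its protocol gives, and replicate 2 from 100k. Lung epithelium, sorted as PDPN+ EPCAM+ CD45- CD31- live cells of the same stage, gave libraries of 100k (replicate 1) and 200k (replicate 2) cells. The IgG control libraries, made from 500k epithelial cells each, are not analysed here. Nothing in the labels says that the replicates came from separate pools of lungs, so p-values cover only library-to-library spread, whose source may be technical.

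The mesothelium is the single-layered sheet that lines the body cavities and the outer surface of the lung. It arises from lateral plate mesoderm, is marked by the transcription factor Wt1, keeps epithelial traits such as polarity and keratins, secretes growth factors such as Fgf9 toward the underlying mesenchyme, and can give rise to mesenchymal cells. H3K27ac marks active promoters and enhancers, and long acetylated stretches around a gene are known to accompany genes of cell identity. MYRF, named in the title of the series, is a membrane-bound transcription factor that is released by self-cleavage and works with the membrane protein TMEM98.

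Peaks were deposited as broad peaks, each with a fold enrichment and a q value given by the authors' caller, and without read counts, so the depth of each library is unknown. The libraries held 39002 (mesothelium replicate 1), 41517 (mesothelium replicate 2), 47858 (epithelium replicate 1) and 46611 (epithelium replicate 2) peaks covering 35.7 to 44.4 Mb, with median fold enrichments of 3.47 to 3.75. Mesothelium replicate 2 had the highest median −log10 q, 2.05, against 1.56 to 1.72 in the other 3 libraries, and no peak of any library lay below 1.00. Many peaks therefore lay near the caller's threshold, and a missing peak is not evidence of missing acetylation. Of the regions found in either mesothelium library 14.7% were found in both, and of those found in either epithelium library 14.0%. Between a mesothelium and an epithelium library the share was 10.7% to 11.4%. The 4 libraries can be split 2 against 2 in 3 ways, so an exact permutation test cannot give a p below 0.333.

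The sequences of 3 promoters show starts of genes of this layer that its peaks covered. They are windows from 250 bases before to 50 bases after the annotated start, from RefSeq (GRCm38.p6), the assembly that mm10, the build of the peak files, is made from. Of 61 mesothelial marker, mesodermal factor and anterior Hox genes, 35 had a window in that table, and 4 of these windows overlapped a region of the landscape (Hoxb4, Meis1, Muc16 and Zeb2), a share near the 13.9% of all windows. The first 3 are printed since neither epithelium library had a peak on them. Capitals mark matches to any of 10 motifs searched on both strands with no mismatch: the TATA box string TATAAA, the CCAAT box string CCAAT, the GC box core GGGCGG, the TEAD-type string GGAATG, the GATA-type string AGATAA, the MEIS-type string TGACAG, the MYRF-type string CTGGCAC and its variant CTGGTAC, the string GCGTGGG bound by WT1 and EGR factors, and the AP-1 string TGACTCA. Meis1 encodes a homeodomain partner of HOX proteins, Muc16 a membrane mucin of the mesothelial surface, and Hoxb4 an anterior homeobox factor.
Meis1, chr11:19018920-19019219, minus strand: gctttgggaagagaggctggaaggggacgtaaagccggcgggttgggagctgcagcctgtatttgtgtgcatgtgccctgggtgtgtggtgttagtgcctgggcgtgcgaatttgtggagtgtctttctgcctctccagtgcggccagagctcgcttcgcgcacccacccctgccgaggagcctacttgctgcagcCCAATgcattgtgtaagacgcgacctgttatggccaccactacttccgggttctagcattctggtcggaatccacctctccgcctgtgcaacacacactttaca
Muc16, chr9:18674554-18674853, minus strand: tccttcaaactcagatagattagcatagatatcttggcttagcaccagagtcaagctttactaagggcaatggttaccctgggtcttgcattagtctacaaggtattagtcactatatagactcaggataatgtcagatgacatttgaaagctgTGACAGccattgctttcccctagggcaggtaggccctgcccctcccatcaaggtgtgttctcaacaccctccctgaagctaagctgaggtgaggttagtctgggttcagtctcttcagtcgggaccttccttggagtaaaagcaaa
Hoxb4, chr11:96318017-96318316, plus strand: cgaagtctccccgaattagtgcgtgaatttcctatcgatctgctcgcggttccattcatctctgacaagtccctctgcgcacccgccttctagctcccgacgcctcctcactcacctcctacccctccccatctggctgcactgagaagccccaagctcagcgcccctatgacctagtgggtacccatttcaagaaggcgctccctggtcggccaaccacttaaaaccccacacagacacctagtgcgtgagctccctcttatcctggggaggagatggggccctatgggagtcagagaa
Peaks covered 0 bases of the Meis1 window in mesothelium replicate 1 and all 300 in replicate 2. They covered 182 and 300 bases of the Muc16 window, and 175 and 300 of the Hoxb4 window. The Meis1 window held 1 CCAAT, which is found in 37.6% of all 32619 windows, and the Muc16 window 1 TGACAG, found in 18.9%. None of the 10 motifs was found in the Hoxb4 window. The Muc16 window had 1 CpG and a GC content of 46.7%, against 15 CpG in Meis1 and 14 in Hoxb4, which both had a GC content near 58%. A match is a string of letters and not a shown site.

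Across the genome, 4543 of the 32619 promoter windows (13.9%) overlapped a region of the landscape. These windows were richer in GC than windows in general, with a median GC content of 61.7% against 53% and a median of 23 CpG against 7. GGGCGG was present in 66.0% of them against 35.9% of all windows, and TATAAA in 5.75% against 13.7%. AGATAA was present in 5.26% against 11.2%. CCAAT was nearly level, at 38.6% against 37.6%. The 1211 windows of the landscape without a peak of either epithelium library on them had similar shares, 64.2% for GGGCGG and 5.86% for TATAAA.

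MicroRNA loci of the layer are shown for the same reason, since the regions that held them had no epithelium peak. Of 1005 annotated hairpins 48 (4.78%) lay in a region of the landscape. For 6 of the 48 neither epithelium library had a peak in the region, a lower share than the 33.6% of all regions. The loci shown are from these 6. Mir10a lies between Hoxb4 and Hoxb5, in the region chr11:96313234-96318475, which held 4.96 kb under peaks in mesothelium replicate 1 and 3.14 kb in replicate 2. Mir199a-2 lies inside the Dnm3 gene, in the region chr1:162217568-162219195, which held 1.63 and 1.16 kb. Their mature 5p strands, with the seed (bases 2 to 8) in capitals, share no seed.
mmu-miR-10a-5p: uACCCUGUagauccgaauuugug
mmu-miR-199a-5p: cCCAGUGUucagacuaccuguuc
Whether either microRNA is made in these cells was not measured.

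The 10249 regions spanned 22.6 Mb, with a median width of 1887 bp and a range of 335 to 16976 bp, and 9870 of them held 1 peak of each library. They took in 26.8% of the peaks and 42.2% of the covered bases of mesothelium replicate 1, and 25.1% and 41.0% of those of replicate 2. Peaks inside the regions were wider than those outside, with medians of 1154 bp against 525 bp in replicate 1 and 1291 bp against 540 bp in replicate 2. Their median fold enrichment differed less, at 3.76 against 3.55 and 3.98 against 3.69. The libraries ranked the regions loosely: over the regions, Spearman's rho between the libraries was 0.27 for covered kb and 0.16 for fold enrichment.

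By position, 3591 regions (35.0%) lay within 1 kb of an end of a coding gene, 5302 (51.7%) inside a gene and 1356 (13.2%) between genes. The ends were mostly starts, as counted among genes whose own 5' and 3' ends lay well apart. Of these, 1750 of 7787 (22.5%) had a region at the 5' end and 206 (2.65%) at the 3' end. Ends that lay near another gene were not taken out. Peaks were most frequent 200 bp into the transcribed side, where they covered 15.9% of 10805 starts in mesothelium replicate 1 and 24.1% in replicate 2. The epithelium libraries reached 15.5% and 15.7% at the same place. At 5000 bp on either side, coverage was 1.01% to 2.54% over the 4 libraries.

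**Figure D1:**
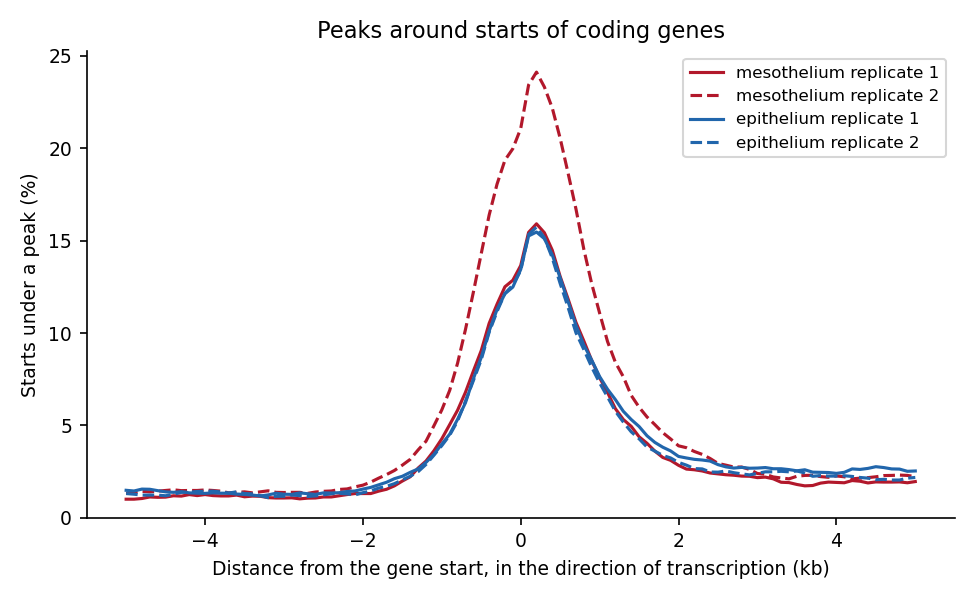
Share of coding gene starts under a peak (vertical axis, %) by distance from the start in kb, 1 line per library. All 4 lines peak just inside the gene, and mesothelium replicate 2 stands above the other 3 there, at 24.1% of starts.

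The overlap with epithelium peaks differed by position. Of all regions 3444 (33.6%, 95% exact binomial interval 32.7% to 34.5%, for counting error only) had no peak of either epithelium library, 2914 (28.4%) had a peak of 1 and 3891 (38.0%) of both. At gene ends 16.2% had none, inside genes 40.5% and between genes 52.6%. The longest regions were mostly shared: 8.8% of the 500 with the most acetylated kb had no epithelium peak, against 54.6% of the 500 with the least. The same held for the 500 with the highest fold enrichment, at 11.6%. The 500 with the most and the least kb had median widths of 5100.5 and 1114.5 bp. Any overlap with an epithelium peak counted, so width was not matched in that comparison. With 1 epithelium library left out in turn, the share without an epithelium peak was 47.8% or 47.9%, since a region is then searched in 1 library.

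Each coding gene was then given a domain, made of its body plus up to 50 kb of flanking intergenic sequence closer to it than to any other gene, and the acetylated length in it was summed. Of 21631 coding genes, 6290 (29.1%) had a region of the landscape in their domain. Among the 6052 with such acetylation in both libraries, the lower of the 2 libraries had a median of 1.06 kb, and 142 genes reached 10 kb. Long domains gather more peaks: Spearman's rho between acetylated kb and domain size was 0.38 across these genes. Sensory receptor genes, known for their use in olfactory and vomeronasal neurons, had few, with 1 of 355 vomeronasal receptor genes (0.282%) and 8 of 1110 olfactory receptor genes (0.721%) holding a region.

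Ranked by the lower of the 2 libraries' kb inside the regions, the 15 leading genes were Nfib, Rad51b, Rere, Ttll5, Sptbn1, Meis1, Cux1, Phactr2, Tns3, Nfia, Foxp1, Fndc3b, Tmem135, Lims1 and Rbpms. Nfib and Nfia encode nuclear factor I proteins, Rere an atrophin corepressor, and Meis1, Cux1 and Foxp1 homeobox or forkhead factors. Nfib led with 62.5 kb in replicate 1 and 59.2 kb in replicate 2, in 24 regions. Rad51b, a recombination repair gene with a very long body, had 46.7 and 60.3 kb. Rere had 50.3 and 42.4 kb. Meis1 had 33.0 and 42.9 kb in 13 regions. Sptbn1 (spectrin of the membrane skeleton), Tns3 (tensin 3) and Lims1 (PINCH1), which link integrin adhesions or the membrane to actin, had 45.5 and 34.2 kb, 29.5 and 34.0 kb, and 25.3 and 24.2 kb. Their ranks rest on domains of 121.3 to 697.0 kb. In a ranking by replicate 1 or by replicate 2 alone, 11 and 12 of the 15 stayed in the list. Such a ranking took in all peaks of the library, also those outside the shared regions. Among peaks with −log10 q of at least 2, 9 of the 15 stayed.

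These leading domains were acetylated in epithelium too. All 15 domains had peaks in both epithelium libraries, and under all peaks the lengths overlapped between the cell types for several of them. Cux1 had 45.6 and 54.8 kb in mesothelium, below the 64.2 and 65.0 kb of epithelium. For Foxp1 they had 53.7 and 59.3 kb against 63.1 and 48.3 kb, so that the groups overlapped. Acetylated length was tested with limma on log2(kb + 0.5) under all peaks of each domain, with Benjamini-Hochberg adjustment over 10485 domains. The test called 148 domains (1.41%) longer in mesothelium and 265 (2.53%) longer in epithelium at an adjusted p under 0.05, 3.94% in either direction. With 0.1 kb added before the logarithm in place of 0.5 kb, 1 domain (Meis1) and 0 were called, and among peaks with −log10 q of at least 2, 0 and 0, with 1655 and 960 domains at an unadjusted p under 0.05. The median difference of all tested domains was 0.03 on the log2 scale. Of the 15 leading domains 4 were called longer in mesothelium (Meis1, Phactr2, Tns3 and Nfia) and 0 in epithelium, and of the leading 100, 16 and 0. These domains were ranked by their mesothelium length, which tilts the direction, so nothing is read from these counts.

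**Figure D2:**
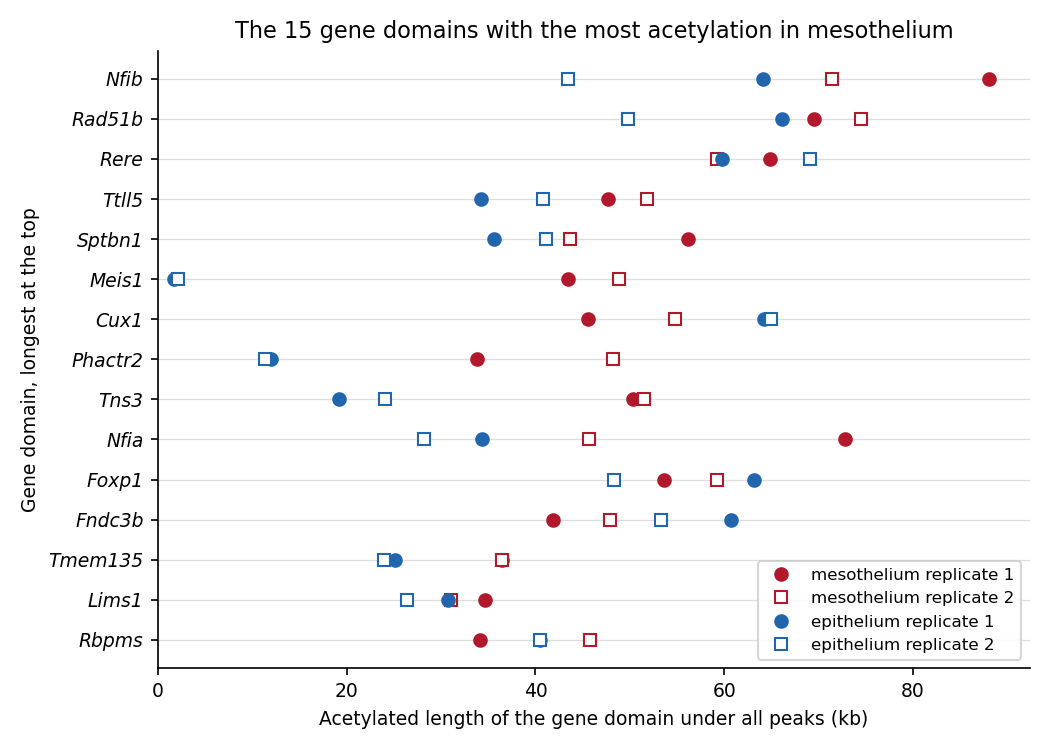
Acetylated length under all peaks (horizontal axis, kb) of the 15 leading gene domains, 1 point per library, red for mesothelium and blue for epithelium. The colours are farthest apart for Meis1, and for Rere, Foxp1 and Rbpms the colours overlap or touch.

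Meis1 stood apart among the 15. Under all peaks its domain held 43.4 kb in mesothelium replicate 1 and 48.8 kb in replicate 2, against 1.68 and 2.08 kb in the epithelium libraries. The difference was 4.35 on the log2 scale (SE 0.42, limma, Benjamini-Hochberg adjusted p = 3.83e-06). The mesothelium libraries had 23 and 22 peaks there, spread over the gene body and beyond its 3' end, and the epithelium libraries 2 and 3. The region over its start, chr11:19005715-19021472 in mm10, ranked 2 by acetylated kb among all regions, with 10.8 and 12.7 kb under mesothelium peaks and no epithelium peak. It stayed called with each library left out in turn.

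**Figure D3:**
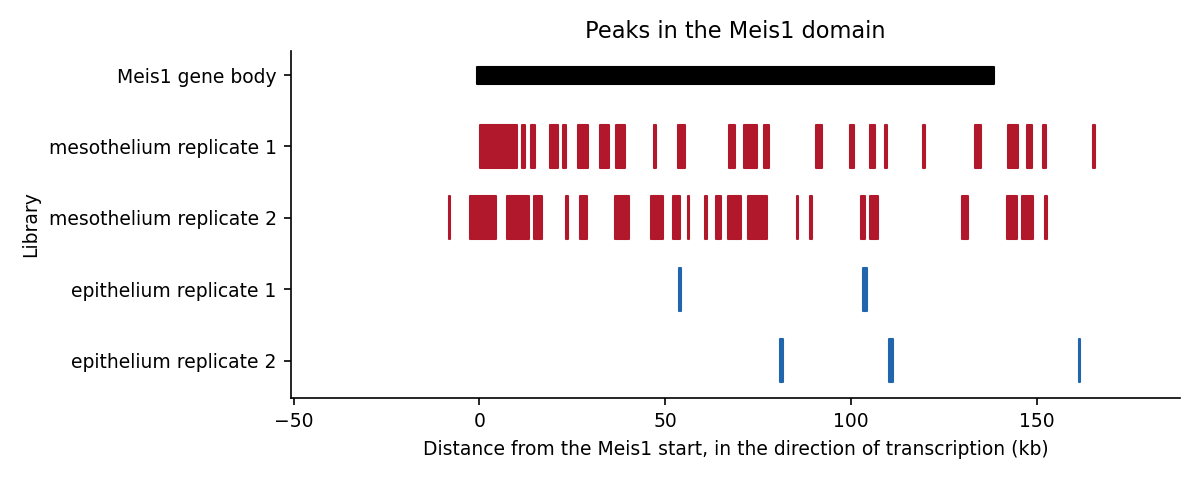
Peaks of each library (coloured bars) in the Meis1 domain by distance from the start in kb, with the gene body in black at the top. Mesothelium peaks (23 and 22) are spread along the whole body and cluster over its first part, where no epithelium peak is drawn.

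The other 3 called genes of the leading 15 had peaks in epithelium too. Phactr2, a regulator of phosphatase 1 and actin, had 33.8 and 48.2 kb against 12.01 and 11.3 kb (a log2 difference of 1.81, SE 0.31, limma adjusted p = 0.00152). Tns3 had 50.3 and 51.5 kb against 19.2 and 24.1 kb (1.29, SE 0.26, adjusted p = 0.0066), and its adjusted p was 0.0739 without epithelium replicate 1. Nfia had 72.8 and 45.7 kb against 34.4 and 28.2 kb (0.94, SE 0.26, adjusted p = 0.0416). For each of the 3 both mesothelium libraries lay above both epithelium libraries, which held for 22.4% of tested domains. With 1 library left out Nfia was called without mesothelium replicate 2 only, and its adjusted p was 0.085 to 0.194 in the other 3 such fits.

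The other single regions with the most acetylated kb lay at genes known from many cell types. Akt2, a kinase of insulin signalling, had the most acetylated kb in 1 region, chr7:27589985-27606960, with 11.6 and 14.4 kb of mesothelium peaks, beside 7.28 and 4.37 kb of epithelium peaks. Ctnnd1, the p120 catenin that holds cadherins at the membrane, followed Meis1 with 12.7 and 10.1 kb in chr2:84631355-84644297, against 6.94 and 9.99 kb. Spin1, a histone reader, had 7.93 and 9.98 kb in chr13:51118518-51130223. Tnrc18 had 7.55 and 7.71 kb in chr5:142815353-142824327. In both the Spin1 and the Tnrc18 region the epithelium libraries had peaks as well.

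A ranking by fold enrichment, the authors' value for each peak, led to other genes. Its leading 10 included Flcn, Dele1, Proser3, Hspb6, Zscan21, Cep44, Fbxo8, Smim10l1 and Zfp119b, and 3 genes were among the leading 100 of both rankings. Flcn, the tumour suppressor folliculin, had the highest peak common to both libraries, with a fold of 7.84 in replicate 1 and 8.14 in replicate 2 at chr11:59809192-59810812. Dele1, a relay of mitochondrial stress, had 6.79 and 8.52. Proser3 and Hspb6 share 1 region, as do Cep44 and Fbxo8, so a peak there cannot be given to 1 gene. The domains of the 10 genes held 0.387 to 1.585 kb inside the regions in the lower library, and 9 of the 10 domains had a peak in both epithelium libraries. By limma 0 of the 10 were called in either direction, and 0 passed an unadjusted p under 0.05. Of the 500 regions with the highest fold 65% lay at gene ends, against 35.0% of all regions. The order rests on single peaks. A ranking by 1 library alone took in all of its peaks, also those outside the shared regions. By replicate 2 alone 0 of the 10 genes stayed in the list, and by replicate 1 alone 4.

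The 6 genes that define the cell type, Wt1, Gpm6a, Bnc1, Upk1b, Muc16 and Meis1, each had a region of the landscape, against 29.1% of all coding genes. All 6 were called longer in mesothelium, against 1.41% of tested domains, with a median log2 difference of 3.5. They were named as markers with earlier results of these data known, so their direction is a check of the label and not independent evidence. Summed over the 6 domains, acetylation came to 69.1 and 99.2 kb in mesothelium, as against 2.82 and 4.34 kb in epithelium.

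Wt1, the zinc-finger factor of mesothelium and kidney, had 6.42 kb in mesothelium replicate 1 and 19.4 kb in replicate 2, where epithelium had 0 and 1.47 kb (a log2 difference of 3.62, SE 0.72, limma adjusted p = 0.00554). It had 4 regions: 2 upstream, 1 at the edge of the gene (chr2:105122976-105126179) and 1 over its first part (chr2:105126801-105131820). The last held 0.404 kb in replicate 1 and 5.02 kb in replicate 2, so most of that region rests on replicate 2. Gpm6a, a membrane glycoprotein, had 6.67 and 13.0 kb against 0 and 0 (4.36, SE 0.69, adjusted p = 0.000965). Bnc1, basonuclin 1, had 4.28 and 4.69 kb against 0 and 0 (3.38, SE 0.74, adjusted p = 0.0108), in 2 regions inside the gene at chr7:81983354-81985539 and chr7:81988395-81989982. For these 3 genes both mesothelium libraries lay above both epithelium libraries, as for 22.4% of tested domains. The call of Bnc1 was lost without mesothelium replicate 2 (adjusted p = 0.0936).

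Upk1b, a uroplakin tetraspanin of the mesothelial surface, had 5.14 and 6.01 kb against 0.508 and 0.448 kb (a log2 difference of 2.69, SE 0.66, limma adjusted p = 0.0227), in 1 region, chr16:38792607-38799861. Its adjusted p was 0.0583 to 0.0809 with any 1 library left out. Muc16 had 3.19 and 7.25 kb against 0.632 and 0.346 kb (2.51, SE 0.69, adjusted p = 0.0426), and its region over the start, chr9:18671839-18675631, contains the promoter window printed above. It stayed called without mesothelium replicate 1 (adjusted p = 0.0357) and was lost without mesothelium replicate 2 (0.285), epithelium replicate 1 (0.078) or epithelium replicate 2 (0.149). For Upk1b and Muc16 both mesothelium libraries lay above both epithelium libraries, as for 22.4% of tested domains.

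Other genes known as mesothelial markers were less evenly marked. Of 15 on a wider list, which shares 5 of the 6 above, 9 had a region and 6 were called longer in mesothelium, those 5 and Aldh1a2. Among all coding genes 29.1% had a region, and 1.41% of all tested domains were called longer in mesothelium. Lrrn4, a leucine-rich repeat protein, had 0.536 and 4.97 kb against 0 and 0 without passing the test (limma adjusted p = 0.169). Upk3b had a peak in replicate 2 alone (0.835 kb). Msln, mesothelin, had 0.544 and 0.893 kb, but in no shared region, against 1.19 and 4.29 kb. Calb2, calretinin, had no mesothelium peak. The keratins Krt8 and Krt19, shared with epithelium, each had a region, with 0.909 and 1.13 kb and 3.12 and 1.79 kb under all peaks, and neither was called in either direction.

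Among 32 transcription factors of mesodermal tissues, 13 had a region, against 29.1% of all coding genes, 4 had no mesothelium peak (Tbx18, Tbx20, Prrx1 and Twist1), and of 22 tested 10 were called longer in mesothelium and 0 in epithelium, against 1.41% and 2.53% of all tested domains. The median log2 difference of the tested members was 1.87, against 0.03 for all tested domains. The 10 were Bnc1, Bnc2, Gata5, Meis1, Meis2, Runx1t1, Tbx5, Wt1, Zeb2 and Zfpm2. Of these Meis2 had peaks in both mesothelium libraries (4.13 and 8.41 kb, against 0 and 0) without any shared region. Bnc1, Meis1 and Wt1 are also among the defining markers above. The list was chosen with earlier results of these data known, so its counts are not independent evidence.

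Tbx5, a T-box factor of heart, limb and lung mesoderm, had 8.37 and 12.7 kb against 0 and 0.324 kb (a log2 difference of 4.13, SE 0.67, limma adjusted p = 0.00109). Bnc2, basonuclin 2, had 18.9 and 54.8 kb against 1.99 and 1.77 kb (3.84, SE 0.49, adjusted p = 0.000196), with much more of it in replicate 2. Zfpm2, the GATA cofactor FOG2, had 21.8 and 36.6 kb against 3.05 and 2.70 kb (3.15, SE 0.43, adjusted p = 0.00033). Gata5, a GATA factor, had 7.44 and 8.37 kb against 0.647 and 0 kb (3.53, SE 0.68, adjusted p = 0.00446). Zeb2, a repressor of epithelial genes, had 11.8 and 10.3 kb against 0 and 2.51 kb (3.29, SE 0.72, adjusted p = 0.0105). For each of these 5 genes both mesothelium libraries were above both epithelium libraries, as for 22.4% of tested domains. Tbx5, Bnc2, Zfpm2 and Gata5 stayed called with each library left out in turn. Zeb2 was lost without epithelium replicate 1 (adjusted p = 0.0898), Runx1t1 without mesothelium replicate 2 (0.0701) or epithelium replicate 2 (0.0818), and Meis2 without mesothelium replicate 2 (0.104).

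Other factors of the list with a region in the layer were not called. Gata6, a GATA factor of endoderm and mesoderm, had 13.0 and 15.6 kb against 26.6 and 20.5 kb and was not called (limma adjusted p = 0.325). Nr2f2, the nuclear receptor COUP-TFII, had 3.06 and 7.99 kb against 2.62 and 7.08 kb. Tbx4 had 1.5 and 3.25 kb against 0.344 and 0 kb without passing the test (adjusted p = 0.149).

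The Hox genes, which record position along the body axis, were divided by paralogue position. Of 16 anterior Hox genes 7 had a region (among them Hoxa2, Hoxa3, Hoxa5, Hoxb3, Hoxb4 and Hoxb5), and all 7 lie in the A and B clusters. Among all coding genes 29.1% had a region. No mesothelium peak was found for 6 others (Hoxa4, Hoxb6, Hoxc5, Hoxd1, Hoxd3 and Hoxd4). Of 16 posterior Hox genes 0 had a peak in either mesothelium library, where 35.3% of all coding genes had none, and these genes had 0 kb in both epithelium libraries too. Hoxb3 had 19.2 and 18.9 kb against 0.480 and 0.488 kb (a log2 difference of 4.38, SE 0.56, limma adjusted p = 0.000196). Hoxa3 had 11.2 and 17.7 kb against 0.384 and 0 kb (4.52, SE 0.64, adjusted p = 0.000405), with most of it in chr6:52171255-52181474. Both stayed called with each library left out in turn. The annotated bodies of Hoxa3 and Hoxb3 overlap neighbouring Hox genes, so this length belongs to a stretch of the cluster and not to 1 gene. In Hoxb it included the region around the printed Hoxb4 promoter and Mir10a. Hoxa5 (1.63 and 2.65 kb against 0 and 0) and Hoxb5 (1.56 and 1.57 kb against 0 and 0) were not called.

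Of 37 genes of the extracellular matrix 26 had a region, where 29.1% of all coding genes did. Constitutive genes were above that share too, and domain sizes were not matched. All 37 had a mesothelium peak, where 35.3% of all coding genes had none. Of 36 tested, 8 were called longer in mesothelium (Col3a1, Col5a1, Col5a2, Col6a1, Col6a2, Col6a3, Col12a1 and Fbn1) and 1, the basement membrane collagen Col18a1, in epithelium, against 1.41% and 2.53% of all tested domains. The median difference was 0.27. Col3a1, a fibrillar collagen, had 9.05 and 12.3 kb against 0 and 0 (a log2 difference of 4.53, SE 0.67, limma adjusted p = 0.000578). Its 3 regions lay between genes, and the largest was chr1:45355349-45359177. Col5a2 is the next gene, so part of this acetylation cannot be assigned to 1 of them. Fbn1, fibrillin of elastic microfibrils, had 24.8 and 27.9 kb against 3.03 and 3.13 kb (2.97, SE 0.42, adjusted p = 0.000434). Both stayed called with each library left out in turn, as did Col5a1. The calls of Col5a2, Col6a1, Col6a2, Col6a3 and Col12a1 were each lost in at least 1 such fit, with adjusted p up to 0.203, 0.0856, 0.315, 0.245 and 0.207, and that of Col18a1 without epithelium replicate 2 (0.0507).

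Laminin genes and the type I collagen genes were not called. Lama5, a laminin chain of epithelial basement membranes, had 10.7 and 14.2 kb against 10.4 and 12.4 kb, with the groups overlapping. Lamc1 had 27.6 and 17.5 kb against 51.2 and 39.1 kb (limma adjusted p = 0.0671). Col1a1 had a peak in mesothelium replicate 2 alone (2.62 kb), and Col1a2 had 3.21 and 1.49 kb against 0.954 and 0.297 kb without passing the test (adjusted p = 0.342).

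Of 40 genes for secreted signals 11 had a region, near the 29.1% of all coding genes. Among 32 tested, 2 were called longer in mesothelium (Fgf2 and Fgf9) and 2 in epithelium (Fgf1 and Shh), against 1.41% and 2.53% of all tested domains. Fgf9, which signals from mesothelium and epithelium to the lung mesenchyme, had 2.38 and 12.9 kb against 0.369 and 0.302 kb (a log2 difference of 2.95, SE 0.75, limma adjusted p = 0.0267), in 1 region inside the gene, chr14:58103587-58110889. Fgf2 had 3.32 and 5.97 kb against 0 and 0.836 kb (2.67, SE 0.74, adjusted p = 0.0448). Neither call was stable to the libraries: Fgf9 had an adjusted p of 0.409 without mesothelium replicate 2 and 0.0606 without epithelium replicate 2, and Fgf2 was lost in 3 of the 4 such fits (0.0564 to 0.277), staying called without epithelium replicate 2. Shh, the hedgehog ligand of lung epithelium, had no mesothelium peak against 8.90 and 7.62 kb, and it stayed called with each library left out. Fgf1 was lost without epithelium replicate 2 (0.272). The guidance cues Sema3a (26.0 and 21.3 kb against 17.8 and 20.4 kb) and Sema3c (11.4 and 12.5 kb against 8.72 and 10.5 kb), and the WNT agonist Rspo2 (10.6 and 12.2 kb against 3.38 and 7.31 kb), led the list by length in the landscape and were not called.

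In the layer's landscape 26 of 35 receptors for such signals had a region, against 11 of 40 ligands and 29.1% of all coding genes. The difference between receptors and ligands was not tested, and their domain sizes were not matched. Of 32 tested, 1 was called longer in mesothelium, Tgfbr3, and 5 in epithelium (Fgfr2, Lrp5, Notch1, Robo1 and Tgfbr2), against 1.41% and 2.53% of all tested domains. The median difference was -0.19. Fgfr2 stayed called with each library left out, and the other 4 of these were lost without epithelium replicate 1 (adjusted p = 0.0717 to 0.136), as were Lrp5, Notch1 and Tgfbr2 without epithelium replicate 2 (0.0986 to 0.251). Tgfbr3, betaglycan, a coreceptor for TGF-beta ligands and inhibins, had 24.4 and 23.7 kb against 9.30 and 10.6 kb (a log2 difference of 1.30, SE 0.35, limma adjusted p = 0.0383). Its adjusted p was 0.204 without epithelium replicate 1 and 0.0968 without epithelium replicate 2. Igf2r (22.2 and 25.6 kb against 21.5 and 26.2 kb) overlapped between the cell types, and Bmpr1a (20.0 and 19.8 kb against 10.4 and 9.24 kb) did not overlap but was not called (adjusted p = 0.117).

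Of 17 retinoic acid genes 9 had a region, against 29.1% of all coding genes. With 1.41% of all tested domains called longer in mesothelium, 1 of 11 tested members was, Aldh1a2, the main retinaldehyde dehydrogenase of embryonic mesoderm. It had 3.46 and 9.01 kb against 0.848 and 0.290 kb (a log2 difference of 2.63, SE 0.69, limma adjusted p = 0.0319), and its adjusted p was 0.256 without mesothelium replicate 2 and 0.141 without epithelium replicate 2. Rdh10, which makes the retinaldehyde, had 3.79 and 13.5 kb against 2.48 and 2.33 kb (adjusted p = 0.193). The binding protein Crabp2 and the degrading enzyme Cyp26b1 had no mesothelium peak.

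Hippo pathway genes, which tie growth and mechanical cues to YAP and TAZ, had a region in 13 of 19 cases, against 29.1% of all coding genes and 11 of 18 constitutive genes. None of the 19 was without a mesothelium peak, and of 17 tested 0 were called in either direction by limma, with a median difference of -0.10. At an unadjusted p under 0.05, 3 of the 17 passed, beside 1863 of all 10485 domains. Vgll4, a TEAD cofactor, had 19.8 and 19.7 kb against 27.3 and 29.0 kb. Tead1, the DNA-binding partner of YAP, had 21.5 and 36.3 kb against 35.3 and 38.6 kb, so that the groups overlapped. Yap1 had 14.4 and 21.3 kb against 19.9 and 15.6 kb and Wwtr1 (TAZ) 20.4 and 12.9 kb against 9.71 and 10.7 kb.

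Genes for adhesion and polarity of epithelial sheets were marked in 19 of 27 cases, against 29.1% of all coding genes. Constitutive genes were above that share too. All 27 had a mesothelium peak, where 35.3% of all coding genes had none. Of the 27, all tested, 5 were called longer in epithelium (Cdh1, Cdh3, Jup, Ocln and Pard6b) and 1 in mesothelium, Cdh11. Of all tested domains 2.53% and 1.41% were called in these directions. The median difference of the 27 was -0.64. Cdh11, a mesenchymal cadherin, had 9.71 and 16.9 kb against 2.93 and 2.32 kb (a log2 difference of 2.16, SE 0.51, limma adjusted p = 0.016), and its adjusted p was 0.104 without mesothelium replicate 2 and 0.0697 without epithelium replicate 2. Podxl, the sialomucin of podocytes and other apical surfaces, had 16.8 and 31.6 kb against 8.60 and 10.8 kb (1.28, SE 0.38, adjusted p = 0.0596). Ctnnb1, beta-catenin, had 8.02 and 12.3 kb against 7.56 and 9.12 kb. Cdh1, E-cadherin, had 8.04 kb in mesothelium replicate 1 and 1.03 kb in replicate 2, against 19.3 and 28.2 kb. Cdh3 and Ocln stayed called with each library left out. Cdh1 was lost without epithelium replicate 2 (0.0754), Jup in 3 of the 4 such fits (0.0536 to 0.29) and Pard6b without either epithelium library (0.145 and 0.108).

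The MYRF genes gave little signal. Myrf itself had no peak in mesothelium replicate 1 and 1.53 kb in replicate 2, against 1.49 and 1.23 kb in epithelium, so no region of its domain entered the landscape. Tmem98 had 3.83 and 3.46 kb against 1.87 and 1.56 kb (a log2 difference of 0.96, SE 0.63, limma adjusted p = 0.448), with 2 regions. Myrfl had no mesothelium peak. Of the genes used for the sort, Pdpn, required on both cell types, had 0.364 and 0 kb in mesothelium against 10.4 and 8.97 kb in epithelium (-3.89, SE 0.67, adjusted p = 0.00163). Epcam, gated out of mesothelium, had a short region with 0.685 and 1.02 kb against 5.35 and 4.47 kb (adjusted p = 0.103). Ptprc (CD45), also gated out, had no mesothelium peak. Pecam1 (CD31), gated out as well, had 2 regions, with 5.43 and 1.525 kb under all peaks against 2.305 and 1.92 kb. Its groups overlapped and it was not called (limma adjusted p = 0.780).

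**Figure D4:**
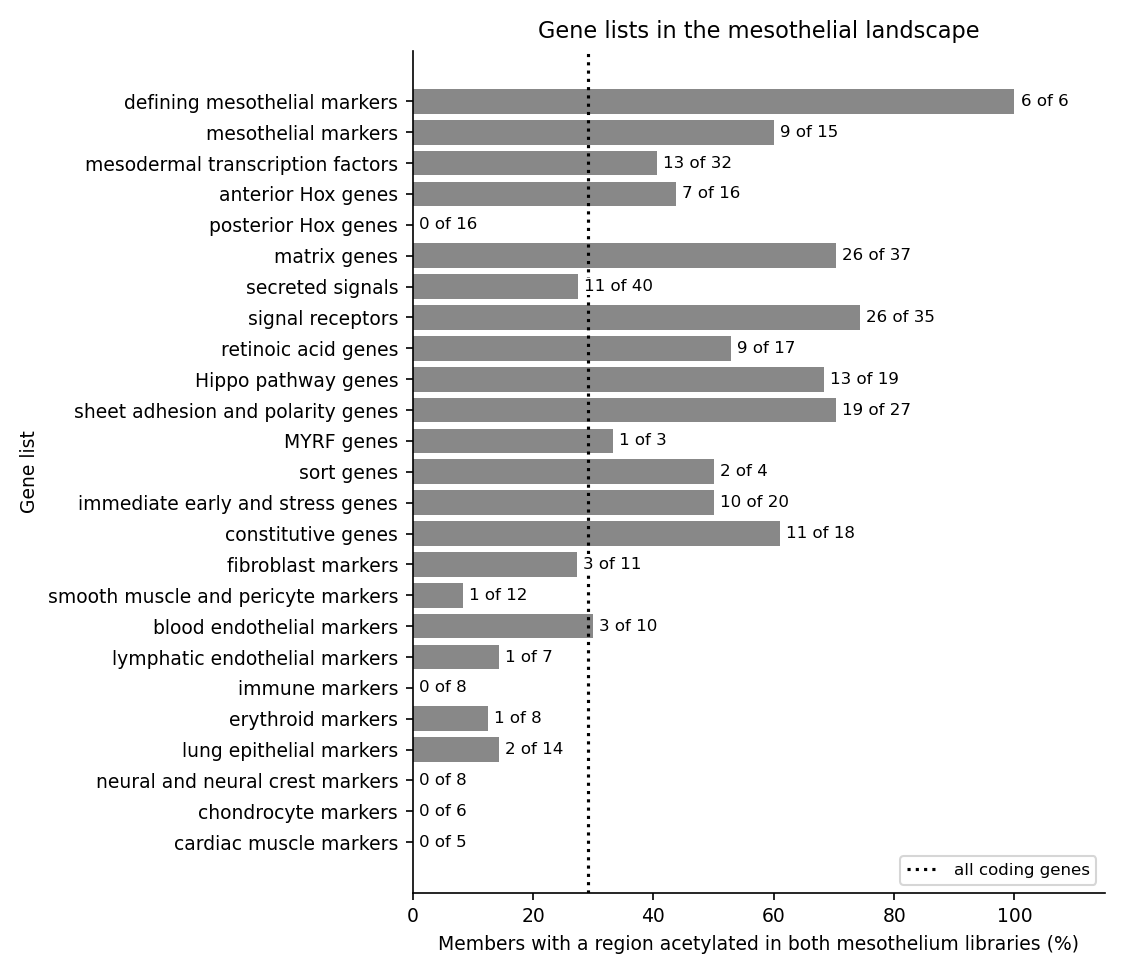
Share of each gene list's members with a region acetylated in both mesothelium libraries (horizontal axis, %), with the number of members beside each bar and a dotted line at the 29.1% of all coding genes. Many lists pass the line, among them matrix, receptor, adhesion and Hippo genes (13 to 26 members), and also constitutive, stress, retinoic acid and mesodermal factor genes. Posterior Hox, immune, neural, chondrocyte and cardiac lists are at 0.

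Markers of other cell types had a region in 0% to 30% of each list, where 29.1% of all coding genes had one. Immune (0 of 8), neural (0 of 8), chondrocyte (0 of 6) and cardiac muscle (0 of 5) markers had no region, and the leukocyte genes Ptprc and Spi1 and the cardiac genes Myh6 and Tnnt2 had no mesothelium peak. Of 8 erythroid markers 1 had a region, and the globin genes of the list had no mesothelium peak. Of 12 smooth muscle and pericyte markers Pdgfrb alone had one. Fibroblast markers had a region in 3 of 11 cases (Col14a1, Dcn and Lum), with sums of 27.2 and 26.3 kb in the mesothelium and 14.3 and 9.22 kb in the epithelium libraries. Of these Col14a1 was called longer in mesothelium (14.6 and 14.5 kb against 3.36 and 2.30 kb, limma adjusted p = 0.00899), and Gli1 and Mfap4 had no mesothelium peak. PDPN is also found on some fibroblasts, and the part of such cells in the calls above was not tested.

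Endothelial markers were mixed although CD31+ cells were sorted out. Of 10 blood endothelial markers 3 had a region (Tek, Pecam1 and Kdr), and 5 (Cdh5, Erg, Sox17, Sox18 and Cldn5) had no mesothelium peak. Tek had 3.35 and 6.12 kb against 0 and 0 (a log2 difference of 3.40, SE 0.75, limma adjusted p = 0.0108). Kdr had 2.80 and 2.81 kb against 0 and 0 (2.79, SE 0.79, adjusted p = 0.0494). Tek was lost without mesothelium replicate 2 (adjusted p = 0.178) and Kdr with any 1 library left out (0.127 to 0.258). Summed over the list, mesothelium had 15.2 and 11.2 kb, and epithelium 4.20 and 7.21 kb. Of 7 lymphatic markers Mmrn1 had a region, with 2.63 and 3.00 kb against 1.07 and 0.665 kb (adjusted p = 0.313), and Lyve1, Reln and Ccl21a had no mesothelium peak.

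Lung epithelial markers set the mesothelium replicates apart. Summed over 14 markers, replicate 1 had 33.5 kb and replicate 2 had 6.84 kb, against 162 and 180 kb in the epithelium libraries. Foxa2, a forkhead factor of endoderm, had 5.85 kb in replicate 1 and 0.417 kb in replicate 2, and Nkx2-1, the factor that defines lung epithelium, 2.95 and 0 kb, against 28.1 and 33.7 kb. Sftpc and Sox2 had no mesothelium peak. Of the 14, 2 had a region in the landscape (Epcam and Krt7), where 29.1% of all coding genes did. Among 12 tested, 7 were called longer in epithelium, against 2.53% of all tested domains. Of these 7, Foxa1, Grhl2, Sftpb and Cdh1 were lost with at least 1 library left out. With mesothelium replicate 1 left out, 470 domains were called longer in epithelium in place of 265, and 173 longer in mesothelium in place of 148. The part of epithelial cells in replicate 1 was not tested.

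Genes that respond to dissociation and sorting were also measured. Of 20 immediate early and stress genes 10 had a region, and 0 of 15 tested were called in either direction by limma (2 at an unadjusted p under 0.05), with a median difference of 0.02. Klf6 (5.35 and 8.05 kb against 9.04 and 9.36 kb) and Jun (8.35 and 6.01 kb against 8.69 and 9.07 kb) had the longest domains of the list. Of 18 constitutive genes 11 had a region, and 0 of 14 tested were called by limma (0 at an unadjusted p under 0.05), with a median difference of 0.44. Both lists were above the 29.1% of all coding genes with a region.

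**Figure D5:**
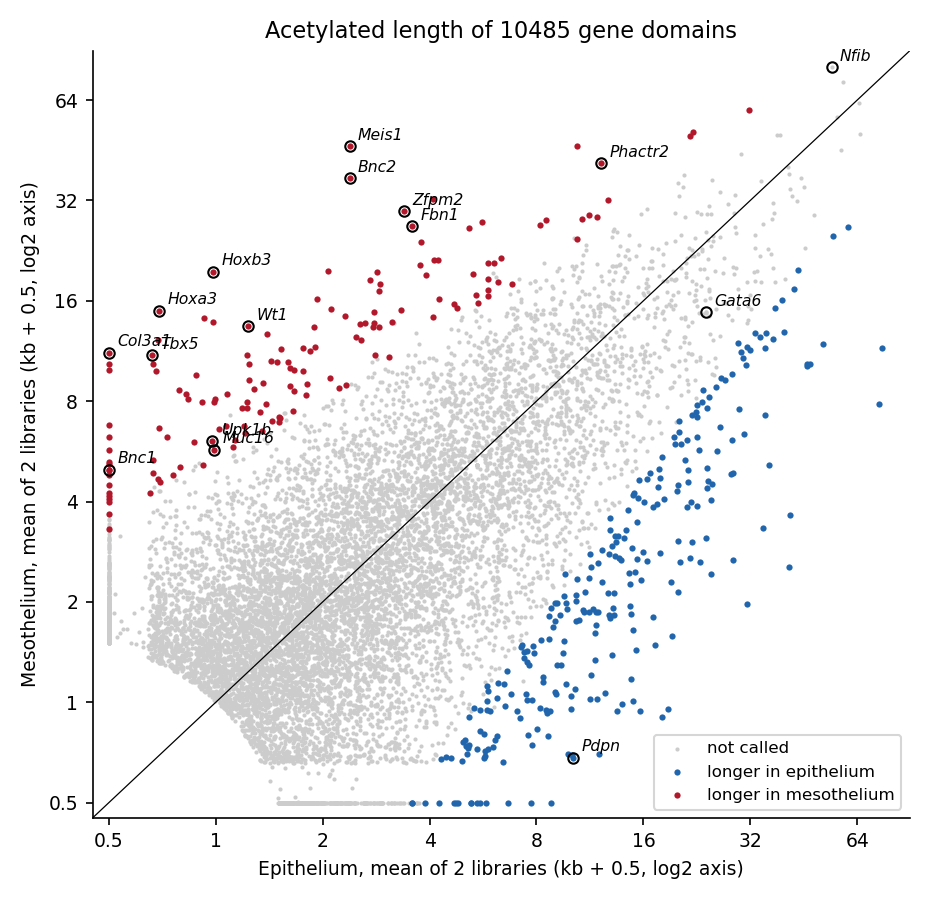
Acetylated length of each of 10485 tested gene domains under all peaks, as the mean of 2 libraries plus 0.5 kb, in epithelium (horizontal, log2 axis) and mesothelium (vertical, log2 axis), with the line of equality. Red points (148) were called longer in mesothelium and blue points (265) in epithelium. The labelled genes were chosen with results of these data known. Among them the Hox genes, the defining markers and the mesodermal factors other than Gata6 lie among the red. Pdpn lies among the blue, and Nfib and Gata6 lie near the line.

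Of the 148 domains called longer in mesothelium 144 held a region of the landscape, where 29.1% of all coding genes did. No peak of either epithelium library was found in 18 of the 148. The call and the regions rest on the same mesothelium peaks, so nothing is read from these counts. Scaling each library to its total covered length gave 88 domains called longer in mesothelium, and quantile normalization 96. All 55 list or leading genes with a call, among them each called gene named here, kept their direction under every alternative run, and a given gene kept its call in 3 to 12 of up to 13 alternatives. These genes were chosen for having a call and the alternatives reuse the same libraries, so a reversal was unlikely from the start.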

How the data were processed

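H3K27ac CUT&RUN peaks of 2 mesothelium and 2 epithelium libraries were analysed. Per the submitters' processing notes, the tools used include cutadapt 4.8, Bowtie2 2.5.3, MACS2 2.2.9.1 and bedtools 2.31.1, and the build is mm10. The authors deposited broad peaks with a score (not used), a fold enrichment (a ratio) and −log10 p and −log10 q values; the reads behind them are not counted in these files. Whether an IgG control entered the calling is not given in the sources used here. Peaks off chromosomes 1 to 19 and X (8 to 22 per library) were left out.

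Peaks were merged at an overlap of 1 bp, and gene domains were drawn from RefSeq (GRCm38.p6) for 21631 coding genes. All 365 list symbols, in 25 lists, matched that annotation. Covered kb entered limma 3.58.1 under R 4.3.3 as median-centred log2(kb + 0.5), with an intensity trend, for domains averaging at least 0.5 kb. Differences on this scale understate those of short domains. Interval code and the limma step were tested on simulated data. Python 3.11.15, pandas 2.3.3, numpy 2.4.6 and scipy 1.17.1 were used. Promoter and microRNA sequences came from RefSeq.

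The members and lists were chosen with earlier results of these data known. Named were the markers, the 15 genes leading by kb and the 10 by fold, the 5 widest and 5 highest regions, and up to 4 members per list by kb, with those lacking a mesothelium peak. Other list members, called or not, were named after their values were seen. Alternatives changed the kb added, scaling, filter, domain, q value, merging, overlap, replicate block and the libraries used. Some items are not reported here.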

Additional observations from a re-analysis of the deposited data

How the results depend on the processing

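The number of regions in both mesothelium libraries was 8613 to 12556 with a stricter overlap, equal peak numbers or merging up to 1 kb, but 3636 at a −log10 q of at least 2 and 105 at 4. A single mesothelium library has 39002 to 41517. The share without an epithelium peak was 52.9% and 81.0% at those q values, 36.2% with equal peak numbers, 31.3% with the stricter overlap, 37.0% with merging up to 1 kb, and 47.8% to 69.6% with 1 library left out. Domains called longer in mesothelium by limma numbered 1 with 0.1 kb added, 88 scaled to total length, 96 with quantile normalization, 94 with 5 kb flanks, 0 at a −log10 q of at least 2 and 110 to 173 with 1 library left out, the lone library being assumed to vary like the others. Longer in epithelium were 0, 122 and 128 under the first 3 of these, 0 at the stricter q, and 80 to 470 with 1 library left out. Of the 15 genes leading by kb 9 stayed at the stricter q. Of the 10 leading by fold 6 stayed when ranked by the mean of the 2 libraries, and 0 to 4 by all peaks of 1 library. Over 55 genes chosen for having a call and 712 values, 471 kept the call, 241 lost it and 0 changed direction. Of 50 list counts 29 stayed within 1.5 times and 21 moved further. At the stricter q the counts were 3 of 6 defining markers in place of 6, 7 mesodermal factors in place of 13, 13 matrix genes and 13 receptors in place of 26 each, 9 adhesion genes in place of 19, and 3 retinoic acid genes in place of 9.

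Replicate numbers do not pair the libraries by any label, and same-numbered deviations correlated at 0.03 over 10485 domains. With the replicate number as a block, 209 and 348 domains were called longer in mesothelium and epithelium in place of 148 and 265. Without read counts, depth could not be matched, and peaks near the caller's threshold limit every count above.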

Other observations

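Long noncoding genes were ranked by the width of the landscape's regions inside them, and their lengths here are under all peaks. Gm16141, which lies within the Meis1 locus on chromosome 11, led with 19.8 kb of region, and had 17.3 kb under mesothelium replicate 1 peaks and 13.8 kb under replicate 2 peaks and 0 kb in both epithelium libraries. Its acetylation cannot be told apart from that of Meis1. E130307A14Rik had 15.1 and 14.4 kb against 7.497 and 9.38 kb, and Airn, the imprinted antisense transcript of the Igf2r locus, 17.1 and 20.8 kb against 15.95 and 21.6 kb. Gm11266, next to Nfib, had 6.95 and 10.8 kb against 3.75 and 2.53 kb. These genes were chosen for their length in the landscape, and the values carry no test.

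The X chromosome held 71 regions of the landscape, 7.35 per 100 coding genes, against 49.3 per 100 on the autosomes. The regions common to both epithelium libraries numbered 11.6 and 55.2 per 100. Single libraries showed a smaller gap, with 72.6 and 81.5 peaks per 100 X-linked coding genes in mesothelium against 185 and 197 on the autosomes. The median fold enrichment of X peaks was 3.501 and 3.68, against 3.601 and 3.75 on the autosomes. The sex of the pooled embryos is not given in the labels, and its part in these values was not tested.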
